A study of Mus musculus with 10 samples.

Results

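The genes described here are 9 lysosomal proteases, namely the cathepsins Ctsa, Ctsb, Ctsc, Ctsd, Ctsh, Ctsl, Ctss and Ctsz and the asparaginyl protease legumain, Lgmn. They were chosen by gene symbol, and all 9 were found among the 16771 genes of each expression table. Cathepsin G, a protease of neutrophil granules and not of lysosomes, was left out of the set. RNA was measured by sequencing after ribosomal RNA depletion in mouse bone marrow cells of the C57BL/6 strain. There were 5 groups of 2 biological replicates each, so n = 2 for every group mean below. The 4 groups of haematopoietic stem and progenitor cells (HSPC) were bone marrow cells left after magnetic depletion of cells with lineage markers. Their genotypes were wild-type (WT), Npm1flox-cA/+;Mx1-Cre+ (Npm1c), Flt3ITD/+ (Flt3-ITD) and, for the double mutant (DM), Npm1flox-cA/+;Flt3ITD/+;Mx1-Cre+. The fifth group was wild-type neutrophils (Neu), obtained from marrow with a neutrophil isolation kit. Npm1cA is a leukaemia-type frameshift allele of nucleophosmin whose protein moves to the cytoplasm, and Flt3-ITD is an internal tandem duplication that keeps the Flt3 receptor kinase active. Mx1-Cre is an interferon-inducible recombinase that also acts outside the blood, and it is carried by the Npm1c and double mutant groups but, per the labels, not by the other 3. The ages and sexes of the mice, and how Cre was induced, were not given in the labels used here.

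Lysosomal proteases are made as inactive precursors, tagged with mannose 6-phosphate, carried to the lysosome and activated there by acid and by one another. Most cathepsins are cysteine proteases of the papain family, while cathepsin D is an aspartic protease and cathepsin A a serine carboxypeptidase. In antigen-presenting cells cathepsin S removes the invariant chain Cd74 from MHC class II molecules, and legumain trims antigens and matures other cathepsins. In myeloid precursors cathepsin C, also called dipeptidyl peptidase I, activates the serine proteases of the primary granules.

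Levels are RPKM as deposited, that is, reads scaled to the gene's length and the library's total. The totals behind them were 40783015 to 57824373 reads per library, and the 9 genes held 29537 to 77132 reads per library, the least covered being Lgmn with 171 to 2633. Differences were tested with limma on log2(RPKM + 0.5), with p-values adjusted over all tested genes by the Benjamini-Hochberg method and a threshold of 0.05. "Rose" and "fell" refer to this test on the deposited scale. The median gene was not at 0 in these comparisons, so log2 changes are given relative to the median of all tested genes, unless marked as deposited. The interaction terms of the 9 genes and the changes under alternative settings are not relative to the median. Every p-value tests the change before the median was taken off, so no p-value tests a relative change. That median was -0.26 for Npm1c, -0.14 for Flt3-ITD, -0.34 for the double mutant and -0.70 for neutrophils, each against WT HSPC. The share of calls that were lower moved with the scaling: it was 95.9% for Npm1c and 94.4% for Flt3-ITD on the deposited scale, and 54% and 54.8% after median-of-ratios scaling. For the double mutant it was 71.2% and 49.8%, for neutrophils 68.8% and 49.5%, for the interaction 41.4% and, after quantile normalization, 63.1%, and for Flt3-ITD against Npm1c 14.2% and, after quantile normalization, 48.9%. For the double mutant against Flt3-ITD it was 63% and, after median-of-ratios scaling, 49.4%.

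Some libraries stood apart or went against their label. Both libraries labelled double mutant HSPC held dendritic cell transcripts: the 12 dendritic markers summed to 475.6 and 481 RPKM, against 50.9 to 51.5 in WT HSPC, and Xcr1, a chemokine receptor of cross-presenting dendritic cells, stood at 109 and 106 RPKM against 0.272 and 0.206. Xcr1 is among the tested genes only through its double mutant levels, so it is left out of the double mutant list counts below. The 10 stem and progenitor markers summed to 24.8 to 25 RPKM in the double mutant libraries, against 108 to 109 in WT HSPC. The 12 late neutrophil markers reached 416 RPKM in Npm1c replicate 2 and 90 in replicate 1, against 60.1 to 78.8 in WT HSPC and 262 to 305 in Flt3-ITD. The 6 primary granule genes summed to 1698 RPKM in Flt3-ITD replicate 1 and 718 in replicate 2. Y-linked transcripts summed to 12.5 RPKM in Npm1c replicate 2 and 13.4 in Flt3-ITD replicate 1 and to at most 0.00813 elsewhere. In the neutrophil libraries the late neutrophil markers summed to between 99730 and 100000 RPKM. Values per gene pool the mutant and normal transcripts of Npm1 and of Flt3, so they check neither allele. In bulk RNA, more cells of a type and more RNA per cell cannot be told apart, and this holds for every result below.

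Promoters of these genes were searched for short motifs, and a part of the motifs in the levels was not tested. RefSeq windows (GRCm38.p6, from 250 bases before to 50 after a transcript start) were at hand for 7 of the 9 genes, in 9 windows; Ctsb and Ctsh had none in the table used. The E-box CACGTG, which TFEB and related factors bind, was in a window of 4 genes (Ctsa, Ctsd, Ctsl and Lgmn), against 7.15% of 32851 windows of the table. Its longer form TCACGTG, which is counted within it, was in windows of Ctsa, Ctsd and Lgmn, against 3.77% of all windows. The string GAGGAAGT, of the kind bound by the ETS factor PU.1, was in windows of Ctss and Ctsc, against 3.2%. Both strands were searched, and a match is a description of letters, not of binding. The matches are printed below on the strand of the gene, 5′ to 3′, with the motif in capitals (GAGGAAGT appears as its reverse complement).
Ctsd, chr7:142388048-142388077, minus strand: tccccCACGTGacctgtatccagtcattct
Ctsd, chr7:142387908-142387937, minus strand: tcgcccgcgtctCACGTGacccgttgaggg
Ctsa, chr2:164833749-164833778, plus strand: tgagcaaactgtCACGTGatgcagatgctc
Ctsa, chr2:164833766-164833795, plus strand: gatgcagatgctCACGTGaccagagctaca
Lgmn, chr12:102439124-102439153, minus strand: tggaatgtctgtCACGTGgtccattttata
Ctsl, chr13:64370739-64370768, minus strand: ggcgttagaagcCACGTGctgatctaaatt
Ctss, chr3:95526773-95526802, plus strand: aatgaaagttcACTTCCTCattgtggatgc
Ctsc, chr7:88277923-88277952, plus strand: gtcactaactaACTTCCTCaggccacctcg
The Ctsd motifs began 245 and 98 bases before the RefSeq start, the Ctss motif 2 bases before it and the Ctsc motif 151 bases before it. The Ctsa and Lgmn matches lay at a second start that RefSeq lists for each gene, inside the span of the gene model. The whole 250 bases before the Ctss start, the gene with the largest change, held 44.8% G and C and no E-box.
Ctss, chr3:95526536-95526785, plus strand: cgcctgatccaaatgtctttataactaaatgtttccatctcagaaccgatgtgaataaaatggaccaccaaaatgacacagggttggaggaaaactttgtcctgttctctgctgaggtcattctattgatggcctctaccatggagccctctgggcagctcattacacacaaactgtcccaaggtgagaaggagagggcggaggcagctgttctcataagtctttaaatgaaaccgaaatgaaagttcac

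In wild-type HSPC the proteases covered a wide range of levels, with cathepsin D on top per length of the principal transcript and cathepsin Z on top in deposited RPKM. Levels of different genes can be compared only per length, and the length that the deposited RPKM of a gene was divided by was often far longer than its principal transcript: 5.04 times for Ctsa, 6.63 times for Ctsh, 3.13 times for Ctsc, 2.54 times for Ctsd, 2.31 times for Lgmn and 1.99 times for Ctss, against 1 for Ctsb, Ctsl and Ctsz. The order of genes is therefore given per kilobase of the principal transcript in GENCODE M21, which assigns all reads of a gene to that transcript. In deposited RPKM Ctsz came first in WT HSPC, at 67.9 against 63.8 for Ctsd. It also came first in the double mutant, at 150.8 against 143.6 for Ctss. Per kilobase of the principal transcript the mean of WT HSPC was 162 for Ctsd, 67.6 for Ctsz, 47.9 for Ctsb, 27.1 for Ctss and 22.5 for Ctsa. The others stood at 16.4 for Ctsc, 14.9 for Ctsh, 10.6 for Ctsl and 3.29 for Lgmn. In the double mutant the order changed: Ctss came first at 286, then Ctsz at 150, Ctsh at 103, Ctsd at 84.1 and Ctsb at 83.2, with Ctsl last at 9.6. In neutrophils Ctsd stood at 499, followed by Ctsh at 68.1 and Ctsb at 49.5. All values below are deposited RPKM and compare 1 gene across libraries, which the length does not affect.

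**Figure D1:**
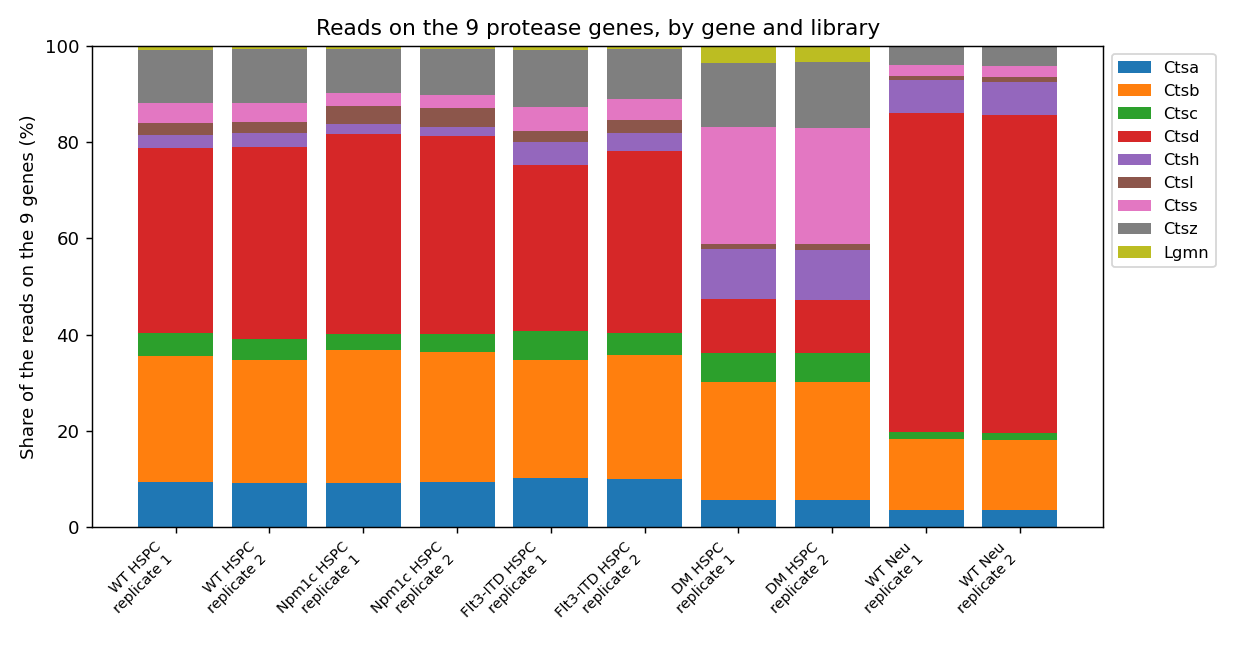
Share of the reads on the 9 genes (vertical axis, percent) that fell on each gene, in each of the 10 libraries (stacked bars, coloured by gene). Ctsd took 38.5% and 39.8% in WT HSPC, 11.3% and 11% in the double mutant and 66.3% and 66.1% in neutrophils, while Ctss took 24.2% and 24.1% in the double mutant and at most 4.94% elsewhere.

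The reads on these genes were divided differently between the groups, as the stacked shares by library show. Npm1c and Flt3-ITD kept roughly the wild-type make-up, with Ctsd at 41.5% and 41.2% and at 34.5% and 37.7%, and Ctsb at 24.6% to 27.4%. Double mutant libraries held 10.4% of the reads on Ctsh in each replicate, against 2.66% and 2.79% in WT HSPC, and 3.49% and 3.41% on Lgmn, against 0.82% and 0.67%. Longer genes take more reads, so these shares describe reads and not molecules.

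**Figure D2:**
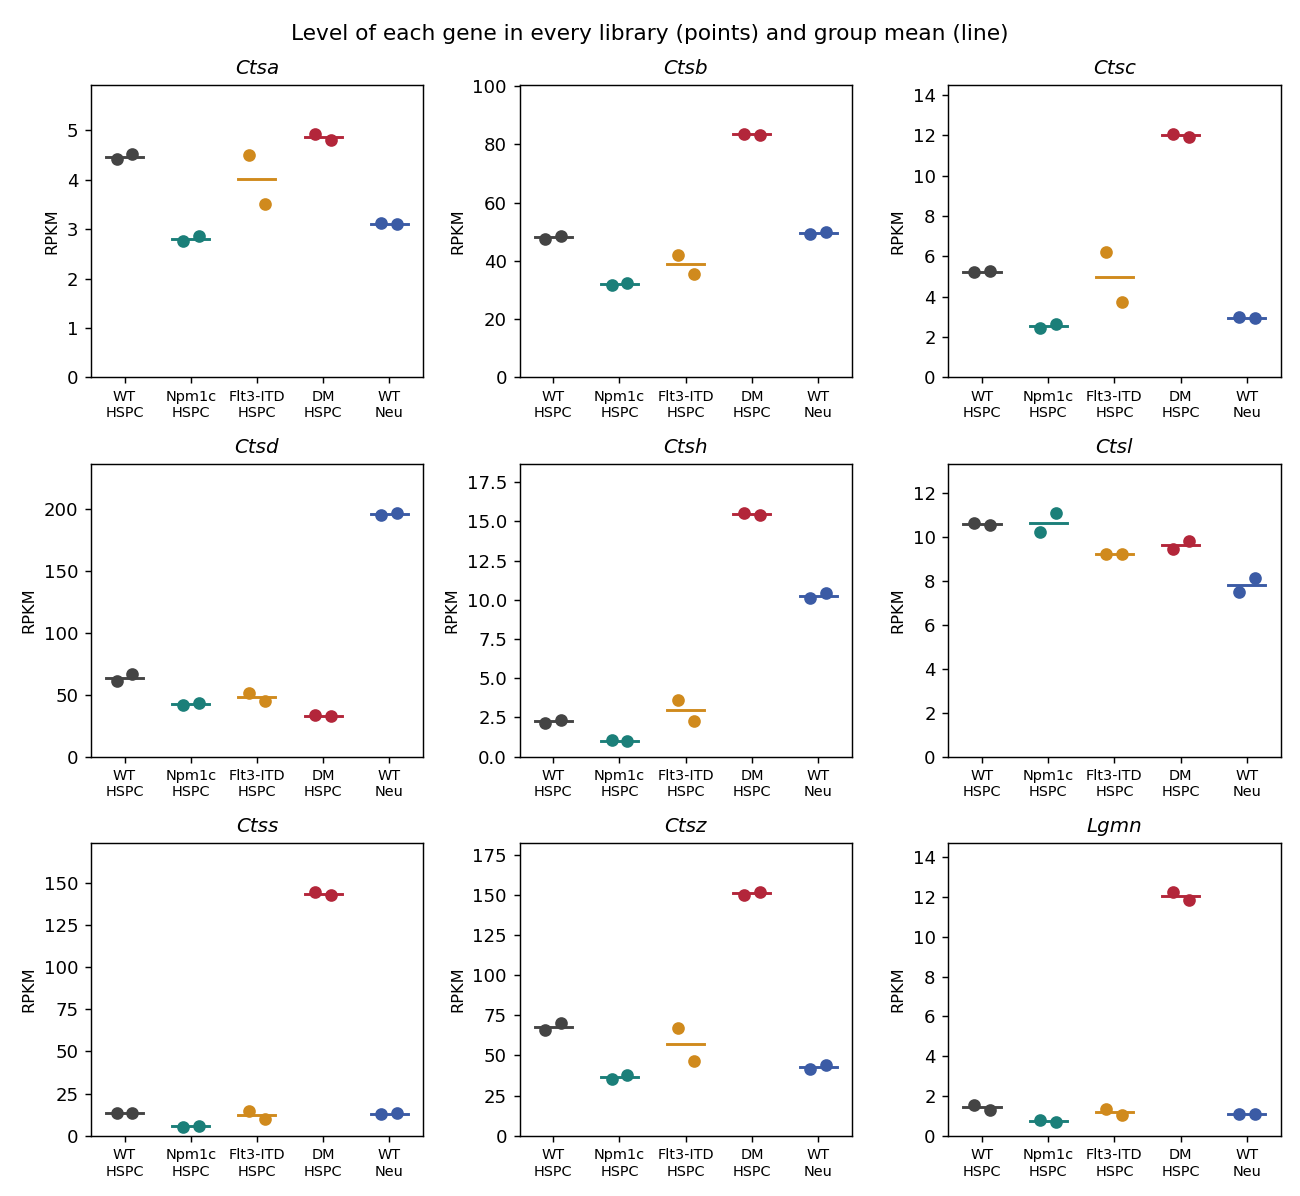
Level of each of the 9 genes (vertical axis, deposited RPKM, from 0) in every library (points) by group, with the group mean as a line; axes differ between genes. Ctss, Lgmn, Ctsh, Ctsz, Ctsc and Ctsb are highest in both double mutant libraries, Ctsd in both neutrophil libraries, and the 2 Flt3-ITD libraries lie apart for Ctsc, Ctss, Ctsz and Ctsh.

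The first comparison set the double mutant, which carries both leukaemia alleles and Mx1-Cre, against WT HSPC. In the libraries labelled double mutant 6 of the 9 genes rose (Ctss, Lgmn, Ctsh, Ctsz, Ctsc and Ctsb), 1 fell (Ctsd) and 2 did not pass (Ctsa and Ctsl). Among all 9702 genes tested 23.9% rose and 58.9% fell. The median log2 change of the 9 genes was 1.46 relative to the median gene.

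Among the proteases that act on the class II pathway, Ctss (chr3:95526786-95556403), the invariant chain protease, stood at 13.7 and 13.6 RPKM in WT HSPC and at 145 and 143 RPKM in the double mutant. Its double mutant libraries lay far above the 8 others, whose highest value was 14.8 RPKM. The ratio of the means was 10.5, and the log2 change relative to the median gene was 3.69 ± 0.15 (SE, limma adjusted p = 1.38e-06) and ranked 171 from the top among 9702 genes. Lgmn (chr12:102394084-102439813), which cleaves after asparagine, stood at 1.54 and 1.32 RPKM in WT HSPC and at 12.2 and 11.8 RPKM in the double mutant. No other library had more than 1.54 RPKM, and the ratio of the means was 8.44 (relative log2 change 3.04 ± 0.10, SE, limma adjusted p = 7.22e-07). Ctsh (chr9:90054152-90076089), an aminopeptidase, went from 2.13 and 2.35 RPKM to 15.6 and 15.4 RPKM. That was 6.91 times the wild-type mean (relative log2 change 2.88 ± 0.16, SE, limma adjusted p = 7.59e-06), and its double mutant level also lay above the neutrophil level of 10.1 and 10.4 RPKM.

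The broadly expressed cysteine proteases rose less. Ctsz (chr2:174427493-174439039), a carboxypeptidase, went from 65.7 and 70.1 RPKM in WT HSPC to 150 and 152 RPKM, a ratio of 2.22 (relative log2 change 1.48 ± 0.15, SE, limma adjusted p = 0.000278). Ctsc (chr7:88278085-88310888), the activator of granule proteases, went from 5.21 and 5.28 RPKM to 12.1 and 11.9 RPKM, a ratio of 2.29 (1.46 ± 0.18, SE, limma adjusted p = 0.000875). Ctsb (chr14:63122462-63145923), an endopeptidase and dipeptidase of most cell types, went from 47.5 and 48.6 RPKM to 83.6 and 83.2 RPKM, a ratio of 1.74 (1.13 ± 0.08, SE, limma adjusted p = 5.38e-05). For all 3 genes both double mutant libraries lay above both WT libraries, as groups that do not overlap did for 95.2% of all tested genes.

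The other 3 proteases did not follow. Ctsd (chr7:142375911-142388038), the aspartic protease of the set, fell from 61 and 66.5 RPKM in WT HSPC to 33.6 and 32.5 RPKM, the lowest of any group. Its wild-type mean was 1.93 times the double mutant mean, and the relative log2 change was -0.60 ± 0.07 (SE, limma adjusted p = 1.89e-05). Ctsa (chr2:164832873-164841032), which also protects lysosomal beta-galactosidase and neuraminidase from breakdown, measured 4.41 and 4.51 RPKM in WT HSPC and 4.93 and 4.81 RPKM in the double mutant. Its ratio was 1.09 and it did not pass (adjusted p = 0.309 by limma). Ctsl (chr13:64359337-64370890), an endopeptidase of the papain family, measured 10.6 RPKM in both WT libraries and 9.44 and 9.83 RPKM in the double mutant (limma adjusted p = 0.0602). The Ctsl difference was called in both directions: it passed as higher under median-of-ratios scaling (log2 change 0.232, limma adjusted p = 0.00733) and as lower in 8 other alternatives, among them those without any single Npm1c or Flt3-ITD library. Its sign also turned, without a call, under listed-gene and quantile scaling. Ctsa passed as higher in 8 of 20 alternatives, which include the 3 other scalings and the fits without either Flt3-ITD library, with a lowest limma adjusted p of 0.000588 under median-of-ratios scaling.

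**Figure D3:**
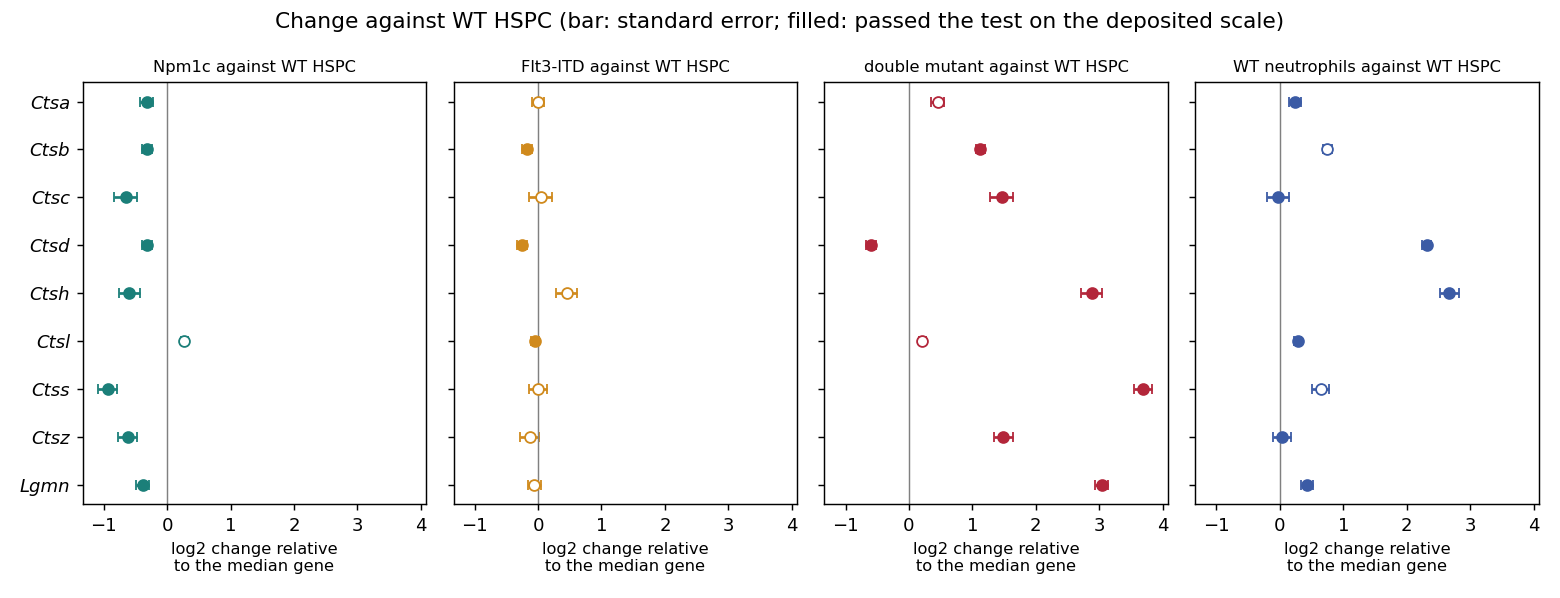
Log2 change of each gene against WT HSPC relative to the median gene (horizontal axis) in Npm1c, Flt3-ITD, the double mutant and neutrophils, with standard errors as bars; filled points passed the test on the deposited scale. In the double mutant the changes run from -0.60 for Ctsd to 3.69 for Ctss, and in neutrophils some filled points lie at or above 0 because the median gene there was at -0.70.

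Markers of antigen-presenting cells moved with the 6 proteases that rose. A gene can pass the filter on low values only through the group in which it is high, and its rise is then fixed by the filter. Lists are therefore counted over genes that pass also without the group compared, as all 9 proteases do, and of all such genes 17.8% rose and 63.8% fell in the double mutant. All 8 such genes of the class II route rose, with a median relative log2 change of 6.11. Cd74, the invariant chain that Ctss cleaves, stood at 1648 and 1645 RPKM in the double mutant against 11.9 and 11.6 RPKM in WT HSPC. Ciita, the master regulator of class II genes, which passed only through the double mutant, stood at 75.7 and 75.4 RPKM against 0.193 and 0.149 RPKM. All 7 such dendritic markers rose, with Itgax, which encodes CD11c, at 89.3 and 88.3 RPKM against 1.11 and 1.27 RPKM. A further 3, Batf3, Clec10a and Xcr1, passed only through the double mutant. Of 7 such monocyte and macrophage markers 4 rose and 1 fell, a further 10 passed only through the double mutant, and the list of 20 summed to 745 to 751 RPKM against 135 to 136 RPKM. The primary granule genes all fell, 6 of 6, with Mpo at 17.6 and 19.7 RPKM against 285 and 297 RPKM. The part of these cells' markers in the protease levels was not tested, and genotype and cell make-up cannot be told apart in 2 libraries that share both.

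**Figure D4:**
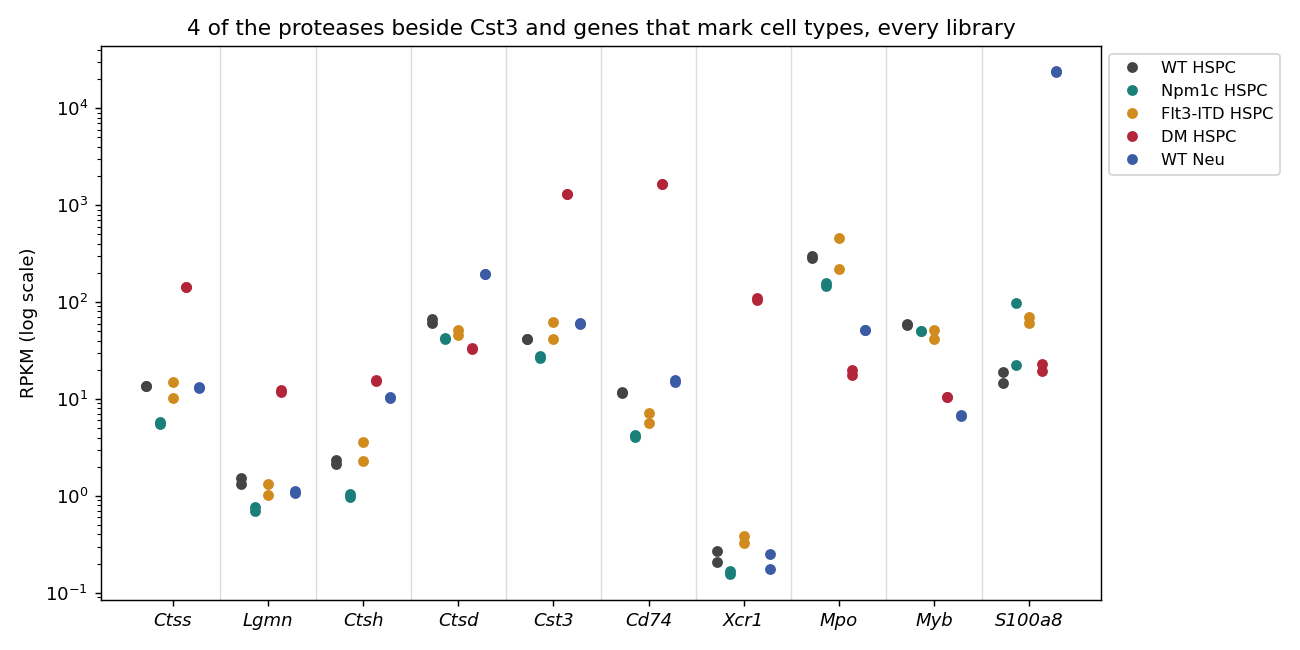
Level (vertical axis, deposited RPKM, log scale) of Ctss, Lgmn, Ctsh and Ctsd beside the cystatin Cst3, the class II invariant chain Cd74, the dendritic marker Xcr1, the granule enzyme Mpo, the progenitor factor Myb and the neutrophil protein S100a8, in every library (points, coloured by group). In the double mutant Ctss, Lgmn and Ctsh are high where Cst3, Cd74 and Xcr1 are high and Ctsd, Mpo and Myb are low. Xcr1 passed the filter only through the double mutant.

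The Npm1c comparison set libraries with the nucleophosmin allele and Mx1-Cre, but without Flt3-ITD, against WT HSPC. The allele and Mx1-Cre cannot be told apart in it. Of the 9 genes 8 fell and none rose, Ctsl being the one that did not pass, while among all tested genes 58.1% fell and 2.49% rose. The 8 genes fell under every alternative scaling, filter and left-out library in which they were tested. Ctss fell furthest, from 13.7 and 13.6 RPKM in WT HSPC to 5.47 and 5.83 RPKM, so that the wild-type mean was 2.41 times the mutant mean (relative log2 change -0.94 ± 0.15, SE, limma adjusted p = 0.00115). It ranked 51 from the lowest of the 9702 tested genes. Ctsc went from 5.21 and 5.28 RPKM to 2.44 and 2.66 RPKM (relative log2 change -0.65, limma adjusted p = 0.00608). Ctsz went from 65.7 and 70.1 RPKM to 35.3 and 37.9 RPKM (-0.62, limma adjusted p = 0.0034), and Ctsh from 2.13 and 2.35 RPKM to 1.05 and 0.969 RPKM (-0.60, limma adjusted p = 0.0051). In each of these genes both mutant libraries lay below both wild-type libraries. Groups did not overlap in 85.9% of all tested genes.

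Some lists of cell type markers were lower in Npm1c as well, where 58.1% of all tested genes fell and 2.49% rose. Other lists were not: of 12 late neutrophil markers 2 rose and 1 fell (median relative log2 change 1.24). Of 6 tested stem and progenitor markers 2 fell and none rose (median 0.07). The monocyte and macrophage list summed to 65.3 to 68.6 RPKM against 135 to 136 RPKM in WT HSPC, with 14 of 17 tested genes lower and none higher. The class II route summed to 53.7 to 60.3 RPKM against 94.8 to 95.2 RPKM (9 of 10 lower), the dendritic list to 31.4 to 35.2 RPKM against 50.9 to 51.5 RPKM (6 of 10 lower) and the primary granule genes to 557 to 562 RPKM against 1013 to 1060 RPKM (5 of 6 lower). Of the tested genes 10 monocyte and macrophage, 2 class II route and 3 dendritic genes passed the filter only through the double mutant. Fewer than 2 of the other HSPC libraries reached 1 RPKM in each of them, so their calls here rest on low values. The part of any of these lists in the lower protease levels was not tested.

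Smaller steps were seen in the rest. Lgmn went from 1.54 and 1.32 RPKM to 0.772 and 0.693 RPKM (relative log2 change -0.38, limma adjusted p = 0.00255). Ctsa went from 4.41 and 4.51 RPKM to 2.77 and 2.85 RPKM, Ctsb from 47.5 and 48.6 RPKM to 31.8 and 32.3 RPKM and Ctsd from 61 and 66.5 RPKM to 42 and 43 RPKM. These last 3 had relative log2 changes of -0.32 each, with limma adjusted p-values of 0.00316, 0.00145 and 0.00129. Ctsl was at 10.2 and 11.1 RPKM in Npm1c, around the wild-type value of 10.6 RPKM, with a deposited log2 change of 0.01 ± 0.06 (SE, limma adjusted p = 0.94) whose sign turned in 4 of 22 alternatives. It passed as higher under each of the 3 other scalings (lowest limma adjusted p = 0.0104, median-of-ratios scaling). The 2 Npm1c libraries, which held 90 and 416 RPKM of late neutrophil markers, lay close to each other in all of these genes.

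With Flt3-ITD alone the proteases moved little, and the 2 libraries disagreed. Of the 9 genes 3 fell (Ctsb, Ctsd and Ctsl) and none rose, among all tested genes 31.3% fell and 1.86% rose. Ctsd went from 61 and 66.5 RPKM in WT HSPC to 51.4 and 45.2 RPKM (relative log2 change -0.26 ± 0.07, SE, limma adjusted p = 0.00975), and Ctsb from 47.5 and 48.6 RPKM to 41.9 and 35.6 RPKM (-0.17 ± 0.08, SE, limma adjusted p = 0.0221). Ctsl, at 9.24 and 9.21 RPKM against 10.6 RPKM, fell on the deposited scale (limma adjusted p = 0.0383). It lay only 0.05 below the median gene on the log2 scale, a difference that was not tested. The 6 genes that did not pass overlapped the wild-type libraries, with replicate 1 above replicate 2 in each. Flt3-ITD and WT HSPC did not overlap in 64.9% of all tested genes. Ctsc measured 6.2 RPKM in replicate 1 and 3.76 RPKM in replicate 2, Ctsz 67.4 and 46.7 RPKM, Ctss 14.8 and 10.2 RPKM, Ctsh 3.64 and 2.28 RPKM, Ctsa 4.5 and 3.52 RPKM and Lgmn 1.33 and 1.02 RPKM.

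Single libraries decided these calls. Calls over all tested genes in this comparison also moved widely between the alternatives, so the counts below are not a result about the 9 genes alone. Without Flt3-ITD replicate 1, and also without both libraries that hold Y-linked transcripts, 8 of the 9 genes fell. Without replicate 2, 2 rose and 3 fell, and without either WT library none passed. Monocyte and macrophage markers summed to 125 and 207 RPKM in the 2 Flt3-ITD libraries and primary granule genes to 718 and 1698 RPKM, both higher in replicate 1, which also holds the Y-linked transcripts. Their part in the difference between the replicates was not tested.

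Set against Npm1c directly, the Flt3-ITD libraries were higher. Of the 9 genes 6 rose (Ctsh, Ctss, Ctsc, Ctsa, Lgmn and Ctsz) and none fell, against 15% and 2.48% of all tested genes. Ctsh, at 3.64 and 2.28 RPKM against 1.05 and 0.969 RPKM, had a relative log2 change of 1.08 ± 0.16 (SE, limma adjusted p = 0.00785), which ranked 50 from the highest of 9702. Ctss had 0.97 ± 0.15 (SE, limma adjusted p = 0.00733). Markers moved with them, and their part was not tested. Higher than in Npm1c were 11 of 17 tested monocyte and macrophage genes, 9 of 10 class II route genes and 6 of 10 dendritic genes. None of these lists had a gene that was lower. Of the tested genes 10, 2 and 3, in that order of lists, passed the filter only through the double mutant, so their calls here rest on low values. Calls over all tested genes in this comparison also moved widely between the alternatives. The count of 6 proteases fell to 2 when the double mutant libraries were left out of the fit and to 0 when only the 2 groups compared were fitted. It was also 0 without Npm1c replicate 1, 1 without Npm1c replicate 2, 2 without either WT or either double mutant library and 9 without Flt3-ITD replicate 2.

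The double mutant was also set against each single mutant. Against Npm1c 7 of the 9 genes rose, 1 fell and Ctsl did not pass, with 34.4% of all tested genes higher and 43% lower. Ctss was 25.4 times its Npm1c mean, Lgmn 16.4 times and Ctsh 15.4 times, with relative log2 changes of 4.64 ± 0.15, 3.44 ± 0.10 and 3.50 ± 0.16 (SE). Ctsc stood at 4.71 times, Ctsz at 4.12 times, Ctsb at 2.60 times and Ctsa at 1.73 times their Npm1c means. Against Flt3-ITD 7 rose and 1 fell, with 28.6% of all tested genes higher and 48.8% lower. The ratios to the Flt3-ITD means were 11.5 for Ctss, 10.2 for Lgmn and 5.23 for Ctsh, then 2.64 for Ctsz, 2.41 for Ctsc, 2.15 for Ctsb and 1.22 for Ctsa. The call for Ctsa against Flt3-ITD (limma adjusted p = 0.0424) was kept in 11 of 20 alternatives and lost without any single WT, Npm1c or double mutant library or Flt3-ITD replicate 2. Ctsl against Npm1c passed when Npm1c replicate 1 or either Flt3-ITD library was left out. Ctsd fell in both comparisons, its Npm1c mean being 1.29 times and its Flt3-ITD mean 1.46 times its double mutant mean. The libraries labelled double mutant are the same in these comparisons and in that with WT HSPC, so the values are not independent of one another.

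An interaction term tested whether the double mutant differed from the sum of both single-mutant changes on the log2 scale. It was positive and passed for 7 of the 9 genes, with 39.2% of all tested genes positive and 27.6% negative. The term was 4.69 ± 0.21 for Ctss, 3.55 ± 0.14 for Lgmn, 3.10 ± 0.23 for Ctsh and 2.30 ± 0.21 for Ctsz (SE, deposited log2 scale). Ctsc had 2.14 ± 0.26, Ctsb 1.68 ± 0.11 and Ctsa 0.85 ± 0.14 (SE). The limma adjusted p-values ran from 1.97e-06 for Lgmn to 0.00144 for Ctsa, and all 7 terms passed in every alternative run. For these 7 genes the Npm1c change was downward while the double mutant mean lay above wild-type. Ctsd had a term of 0.04 ± 0.10 (SE, limma adjusted p = 0.754): its decline in the double mutant, -0.94 on the deposited log2 scale, was near the sum of -0.58 in Npm1c and -0.40 in Flt3-ITD. The Ctsl term was 0.05 ± 0.08 (SE, limma adjusted p = 0.56). Both of these terms turned negative under median-of-ratios scaling, listed-gene scaling and quantile normalization. Under listed-gene scaling both passed as negative, Ctsd with -0.236 (limma adjusted p = 0.0215) and Ctsl with -0.211 (limma adjusted p = 0.0403).

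Neutrophils differed from WT HSPC in another pattern, with cathepsins D and H high. Ctsd stood at 195 and 197 RPKM against 61 and 66.5 RPKM, 3.08 times the HSPC mean (relative log2 change 2.31 ± 0.07, SE, limma adjusted p = 3.81e-08). Ctsh stood at 10.1 and 10.4 RPKM against 2.13 and 2.35 RPKM, 4.58 times the HSPC mean (2.67 ± 0.15, SE, limma adjusted p = 2.28e-06). Both rose under every alternative. They were 2 of the 9 genes, against 28.4% of all 10174 tested genes that rose. The neutrophil libraries also held monocyte and macrophage markers, at 266 to 271 RPKM against 135 to 136 RPKM in WT HSPC. B cell markers summed to 316 to 318 against 220 to 223 RPKM, and those of mast cells, basophils and eosinophils to 609 to 622 against 587 to 602 RPKM. Dendritic markers were lower, at 16.7 to 17 against 50.9 to 51.5 RPKM. A part of such cells in these protease levels was not tested.

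On the deposited scale 5 genes fell in neutrophils, Ctsa, Ctsc, Ctsl, Ctsz and Lgmn, against 62.8% of all tested genes, but relative to the median gene 4 of them lay above 0 and all 5 turned positive under median-of-ratios scaling. Ctsc stood at 2.99 and 2.92 RPKM against 5.21 and 5.28 RPKM, with a relative log2 change of -0.03, and Ctsz at 41.5 and 43.9 RPKM against 65.7 and 70.1 RPKM, with 0.04. Ctsa at 3.12 and 3.1 RPKM, Ctsl at 7.51 and 8.13 RPKM and Lgmn at 1.08 and 1.12 RPKM had relative log2 changes of 0.24, 0.28 and 0.43. Lgmn no longer passed without WT HSPC replicate 1 or without either neutrophil library, its limma adjusted p reaching 0.151. Ctsb, at 49.4 and 49.9 RPKM, and Ctss, at 13 and 13.3 RPKM, lay close to their HSPC levels and did not pass (limma adjusted p = 0.546 and 0.718). Their relative log2 changes of 0.75 and 0.65 were positive. Under median-of-ratios scaling, where the median gene was at 0.00521, 7 of the 9 genes (all but Ctsc and Ctsz) were called higher and none lower. Under quantile normalization, with the median gene at -0.271, the counts were 5 and 1. For the genes other than Ctsd and Ctsh the direction therefore depends on the scaling.

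**Figure D5:**
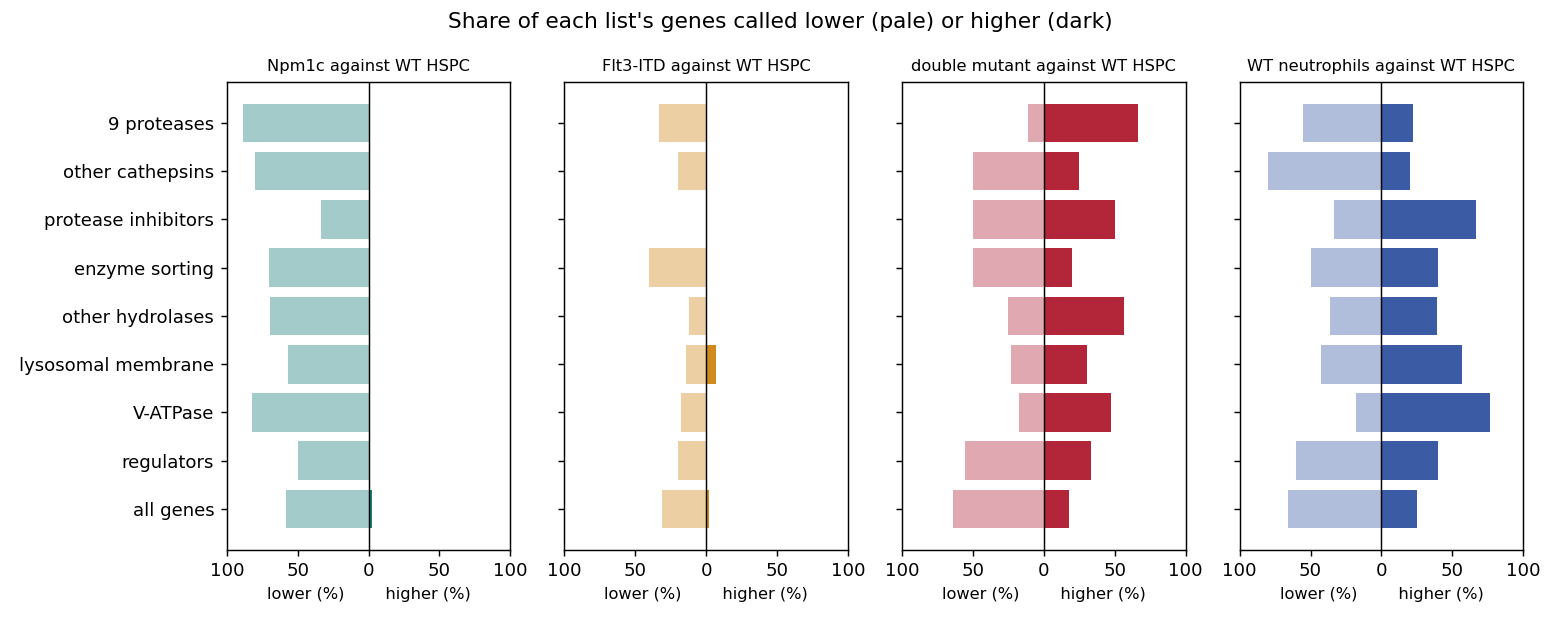
Share (horizontal axis, percent) of the tested genes of each list (vertical axis) that were called lower (pale, left) or higher (dark, right) against WT HSPC in 4 comparisons, with all genes at the bottom; for the double mutant and neutrophils only genes that pass the filter also without that group are counted. In the double mutant the 9 proteases, the other hydrolases, the membrane genes and the V-ATPase have more genes higher than lower, against 17.8% and 63.8% over all such genes.

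The rest of the lysosome changed unevenly in the double mutant. Counted over genes that pass the filter also without the double mutant, 18 of 32 lysosomal hydrolases and activators that are not proteases rose and 8 fell, with a median relative log2 change of 1.03, against 17.8% and 63.8% of all such genes. Psap, the precursor of the saposins that help degrade sphingolipids, stood at 391 and 390.4 RPKM against 30.6 and 31.1 RPKM, and Ppt1, which removes fatty acids from proteins, at 193 and 190 RPKM against 6.65 and 6.57 RPKM. Of 17 subunits of the V-ATPase, the proton pump that acidifies lysosomes, 8 rose and 3 fell (median 0.36). Of 13 lysosomal membrane genes 4 rose and 3 fell (median 0.34), with Cd68 at 34.1 and 33.9 RPKM against 3.29 and 3.39 RPKM. Of 10 genes for mannose 6-phosphate tagging and sorting 2 rose and 5 fell (median 0.17), among the latter Sort1, the sorting receptor sortilin, at 0.979 and 1.01 RPKM against 4.28 and 4.32 RPKM. Of 9 regulators of lysosome genes 3 rose and 5 fell (median 0.11). Tfeb, which passed only through the double mutant, stood at 1.06 and 1.1 RPKM against 0.435 and 0.358 RPKM, and its relative Tfec at 0.201 and 0.246 RPKM against 2.32 and 2.3 RPKM.

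The natural inhibitors and the other cathepsins split as well. Of 6 tested protease inhibitors 3 rose and 3 fell in the double mutant (median 0.07). Cst3, cystatin C, which blocks cysteine cathepsins, stood at 1290 and 1291 RPKM against 41.9 and 41.5 RPKM, a larger rise than that of any of the 9 proteases, with a relative log2 change of 5.27 ± 0.16 (SE, limma adjusted p = 3.99e-07). Slpi, an inhibitor of granule serine proteases, fell to 0.921 and 1.05 RPKM from 8.95 and 9.61 RPKM. Of 4 cathepsins outside the set 1 rose and 2 fell (median -0.37), Ctse, an endosomal aspartic protease, being at 34.4 and 34.5 RPKM against 105 and 110 RPKM. All 5 substrates of Ctsc that pass the filter also without the double mutant fell (median -2.57) while Ctsc itself rose. Of these substrates Gzmb lay close to the median gene (-0.05), and Ctsg fell to 35.6 and 34.6 RPKM from 259 and 274 RPKM. The lists overlap: Ctsg, Elane and Prtn3 are also primary granule genes, Ctsg is also among the other cathepsins and Mcpt8 among the mast cell and basophil genes. Gzma, granzyme A, another substrate, passed only through the double mutant, at 2.4 and 2.22 RPKM against 0.207 and 0.238 RPKM.

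In Npm1c the same lists leaned down, as most genes did. Of the other hydrolases 23 of 33 fell and none rose, with Acp5, a lysosomal acid phosphatase, at 1.04 and 0.974 RPKM against 5.52 and 5.56 RPKM and Psap at 14.4 and 14.5 RPKM. Of the V-ATPase subunits 14 of 17 fell, of the sorting genes 7 of 10, of the membrane genes 8 of 14, of the regulators 5 of 10, of the other cathepsins 4 of 5 and of the inhibitors 2 of 6, and none of these lists had a gene that rose. The median relative log2 changes ran from -0.34 for the inhibitors to 0.01 for the membrane genes, against -0.38 for the 9 proteases. In Flt3-ITD, where 31.3% of all tested genes fell and 1.86% rose, 4 of the 33 hydrolases, 4 of the 10 sorting genes, 3 of the 17 V-ATPase subunits, 2 of the 14 membrane genes, 2 of the 10 regulators, 1 of the 5 other cathepsins and none of the 6 inhibitors fell. The membrane gene Laptm4b was the one gene of these lists that rose. In both comparisons the tested genes include Sgsh, Slc11a1, Tfeb and Ctsw, which passed the filter only through the double mutant.

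In neutrophils most V-ATPase subunits rose while hydrolases split. Of all genes that pass the filter also without the neutrophil libraries 25% rose and 65.9% fell, and the counts here are over such genes. Of the V-ATPase subunits 13 of 17 rose and 3 fell (median relative log2 change 1.42), and of 6 inhibitors 4 rose and 2 fell. A further 7 inhibitors passed only through neutrophils, among them Stfa2l1, a stefin that inhibits cysteine cathepsins, at 244 and 232 RPKM against 0.132 and 0.126 RPKM in WT HSPC. Of the other hydrolases 13 rose and 12 fell, with Lyz2, lysozyme, at 10107 and 10199 RPKM against 79.5 and 80.1 RPKM, and Gaa, acid alpha-glucosidase, at 0.981 and 0.943 RPKM against 6.89 and 7.25 RPKM. Of the membrane genes 8 rose and 6 fell, of the regulators 4 rose and 6 fell, of the sorting genes 4 rose and 5 fell and of the other cathepsins 1 rose and 4 fell. Tfeb reached 3.57 and 3.46 RPKM, and Sort1, low in the double mutant, stood at 24.5 RPKM in both libraries. Ctsk, a collagen-degrading cathepsin that passed only through neutrophils, was at 2.25 and 1.96 RPKM against 0.0721 and 0.127 RPKM.

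Across the 10 libraries some proteases varied closely together and others less or not at all. Pearson correlations of log2(RPKM + 0.5) were 0.99 between Ctss and Lgmn, 0.99 between Ctsc and Ctsz and 0.96 between Ctsb and Ctss. Correlations of other pairs were lower, with 0.72 between Ctsa and Ctsb, 0.59 between Ctsc and Ctsh and 0.42 between Ctsa and Ctsh. Over the 8 HSPC libraries, without neutrophils, those pairs had 0.83, 0.97 and 0.79. All correlations here are descriptions over libraries that share at most 5 groups, so no p is given. Ctsd had r of -0.34 with Ctss and -0.45 with Lgmn over the 10 libraries. Over the 6 HSPC libraries without the double mutant the same pairs had 0.81 and 0.86, and Ctsd had 0.98 with Ctsb. Ctsl had r between -0.73 (with Ctsd) and 0.20 (with Ctsa), and its levels ranged only 1.36 times from the lowest to the highest group mean, against 25.4 times for Ctss and 16.4 times for Lgmn.

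The order of the group means put Npm1c lowest for 7 of the 9 genes and the double mutant highest for 7. The share of all tested genes with such an order was not counted, so these counts are a description. Against WT HSPC 58.1% of all tested genes fell in Npm1c and 23.9% rose in the double mutant. The exceptions were Ctsd, lowest in the double mutant and highest in neutrophils, and Ctsl, lowest in neutrophils and highest in Npm1c. Neighbours in the order whose libraries overlapped were Flt3-ITD and WT HSPC for Ctsa, Ctsc, Ctsh, Ctsz and Lgmn, Flt3-ITD and neutrophils for Ctss and Lgmn, and WT HSPC and Npm1c for Ctsl. Ctsb and Ctsd had no overlap between neighbours. Over all tested genes Flt3-ITD and WT HSPC did not overlap in 64.9%, and Npm1c and WT HSPC in 85.9%.

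The genes whose pattern over the 10 libraries was most like each protease, among 9812 searched, were Sh3bp1 and Rxra for Ctss (r = 0.999 and 0.995), Tlr1 and Rnase6 for Lgmn (0.998 and 0.997) and Trim30a and B4galt5 for Ctsh (0.999 and 0.996). For Ctsz they were Elmo2 and Arhgdia (0.997 and 0.991), for Ctsc H13 and Coro2a (0.997 and 0.989) and for Ctsb Tbc1d22a and the lysosomal sulfatase Sgsh (0.996 each). For Ctsd Mafg is given (0.998), Ctsa was most like Cenpb and Bcl9l (0.986 and 0.984) and Ctsl most like Sbk1 and Nt5dc3 (0.959 and 0.958). These are the highest among the correlations with every gene searched over libraries of 5 groups and are given as a description.

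Some reads may belong to neighbours. Gene models on the opposite strand overlap Ctsa (Neurl2 and Pltp), Ctsb (Fdft1), Ctsc (Gm26522), Ctsl (Gm47123) and Ctsz (Nelfcd), and models on the same strand overlap Ctsd (Gm49369), Ctsl (Gm49230) and Ctss (Hmgb1-ps5). The library kit keeps strand, but the sources used here do not say whether the counting used it, so the levels of these genes are uncertain to that extent.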

How the data were processed

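The deposited files were 10 tables of RPKM values by gene symbol, 1 per library, made by the authors; the submitters' processing notes name STAR 2.4.0, HTSeq and the mouse build mm10, with no annotation or strand setting for the counting. RPKM values are steps of 1 read, so whole reads were recovered for 99.9% of 16655 genes (within 0.001 reads); on simulated data 99.2% of 16376 genes were recovered. These gave read totals of 40783015 to 57824373 per library, of which 60.9% to 81.3% lay on listed genes. The length in the RPKM divisor was checked against GENCODE M21, and it equalled the summed length of all exons of all transcripts for 57.9% of 16039 genes.

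A gene was tested where 2 or more of the libraries in a fit reached 1 RPKM. Values entered limma (version 3.58.1, under R 4.3.3) as log2(RPKM + 0.5), with group means, eBayes with trend and Benjamini-Hochberg adjustment; the script was tested on simulated data. The 8 HSPC libraries shared 1 fit (9702 genes), and neutrophils were compared in a fit of all 10 libraries (10174 genes). Tables and figures used Python 3.11.15, pandas 2.3.3, NumPy 2.4.6, SciPy 1.17.1 and matplotlib 3.10.9. Alternatives were other pseudocounts (0.1 and 1 RPKM), no filter or one at 5 RPKM, median-of-ratios, listed-gene and quantile scaling, a replicate block, a Y-linked term, library weights, voom on the recovered reads, fits of only the groups compared, and each library left out. The members, lists and tests were chosen with earlier results of these data known, and the leaving out of the double mutant group and of both libraries with Y-linked transcripts was added after the data were seen. All members are named; of each other list up to 3 genes per comparison are named, those passing with the smallest adjusted p, and for each member the 2 genes of most similar pattern, of which 1 for Ctsd is not reported here. Counts of lists in the double mutant and neutrophils over genes that pass the filter also without that group were added after the data were seen. Where a gene so named is also given in another group, that value was chosen after it was seen.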

Additional observations from a re-analysis of the deposited data

Results flagged for a closer look

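For 7 of the 9 proteases the libraries labelled double mutant differed from the sum of both single-mutant differences, by the interaction term of the limma fit over the 8 HSPC libraries. Among all 9702 tested genes the term passed as positive for 39.2% and as negative for 27.6%, so passing is common. The terms, on the deposited log2 scale, were 4.69 for Ctss, 3.55 for Lgmn, 3.10 for Ctsh, 2.30 for Ctsz, 2.14 for Ctsc, 1.68 for Ctsb and 0.846 for Ctsa. Each term is the double mutant's difference from Flt3-ITD minus the difference of Npm1c from WT HSPC. The adjusted p ranged from 1.97e-06 for Lgmn to 0.00144 for Ctsa. The term was also positive, and passed, for all 8 class II route genes and all 7 dendritic markers that pass the filter without the double mutant (medians 6.88 and 3.54 relative to the median gene), and genotype and cell make-up cannot be told apart there. No group has enough libraries for a test of single outlying samples.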

How the results depend on the processing

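Of 1549 log2 changes of the 9 genes recomputed under an alternative, 1379 kept their direction and their side of the threshold, 78 lost the call, 54 gained one and 38 changed sign. The counts of members called stayed within 1.5 times the reported count except in the Flt3-ITD comparisons, where the cause was not tested. Flt3-ITD against WT HSPC (3 called) had 1 with either median-of-ratios or listed-gene scaling, 0 with only the 2 groups compared, 8 without both libraries with Y-linked transcripts and 0 to 8 with 1 library left out. Flt3-ITD against Npm1c (6 called) had 2 with no filter, 0 with only the 2 groups compared, 2 without the double mutant group and 0 to 9 with 1 library left out. Where this left an arm with 1 library, that library was assumed to vary like the other groups.

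The replicate numbers did not pair the samples: deviations of same-numbered libraries correlated between -0.11 and 0.11. With a replicate block 2 members were called for Flt3-ITD against WT HSPC and 5 for Flt3-ITD against Npm1c; it changed no other call. Signs changed as follows (log2 change as fitted, not relative to the median gene). For Ctsl in Npm1c: Y-linked term -0.0241, without WT replicate 2 -3.69e-05, without Npm1c replicate 2 or both Y-linked libraries -0.0527 (range with 1 library left out -0.0527 to 0.0629). In Flt3-ITD, under median-of-ratios scaling, Ctsa had 0.00818, Ctsc 0.054 and Ctss 0.0279; under listed-gene scaling Ctsc 0.0412 and Ctss 0.0142; under quantile normalization Ctsa 0.018, Ctsc 0.0704 and Ctss 0.0269; without Flt3-ITD replicate 2 Ctsa 0.0097, Ctsc 0.223 and Ctss 0.116, and without its replicate 1, at the other end, -0.305, -0.43 and -0.396. Ctsl in the double mutant had 0.232, 0.00608 and 0.103 under median-of-ratios, listed-gene and quantile scaling. In the interaction, in that order of scalings, Ctsd had -0.0443, -0.236 and -0.14 and Ctsl -0.0255, -0.211 and -0.172; Ctsd had -0.0215 without WT replicate 2 and -0.0514 without Flt3-ITD replicate 2 (0.131 at the other end), and Ctsl -0.00317 without Npm1c replicate 1 (0.112 at the other end). In neutrophils, under median-of-ratios scaling, Ctsa had 0.351, Ctsc 0.0799, Ctsl 0.452, Ctss 0.831, Ctsz 0.245 and Lgmn 0.394; under quantile normalization Ctsa 0.0323, Ctsl 0.0148, Ctss 0.297 and Lgmn 0.252; under listed-gene scaling Ctsb -0.0819.

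Counts over all genes moved too: Npm1c against WT HSPC went from 5880 to between 3404, at the 5 RPKM filter (5285 genes tested), and 7341, Flt3-ITD against WT HSPC from 3213 to between 482 and 6573, and Flt3-ITD against Npm1c from 1697 to between 51 and 4761. The 5 RPKM filter also took neutrophils from 9283 to 5599, the double mutant from 8035 to 4605 against WT HSPC, 7508 to 4251 against Npm1c and 7514 to 4309 against Flt3-ITD, and the interaction from 6480 to 3707, with fewer genes tested. With n = 2, p-values rest on a spread pooled over groups, and Lgmn had the fewest reads (171 at its lowest). The groups differed in spread. The median squared deviation between replicates was 8.98 times counting noise in Flt3-ITD, 3.83 in Npm1c and 2.35 in WT HSPC. It was 1.46 in neutrophils and 1.23 in the double mutant, so the pooled spread does not describe each group.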

Other observations

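Markers of other lineages were followed in the double mutant as well. Of all genes that pass the filter also without the double mutant, 17.8% rose and 63.8% fell there. The erythroid and B cell lists, with 60% and 50% of their tested genes lower, lay near that share. All 7 tested genes of mast cells, basophils and eosinophils fell, with a median relative log2 change of -4.00, and the 8 listed genes summed to 8.96 to 12.9 RPKM against 587 to 602 RPKM in WT HSPC. All 6 tested megakaryocyte genes and all 6 tested stem and progenitor genes fell (medians -1.43 and -1.78). Of 10 erythroid genes 3 rose and 6 fell, of 4 tested B cell genes 2 fell, of 2 T and NK cell genes that pass the filter without the double mutant 1 rose and 1 fell, and all 4 tested stroma and endothelial genes fell. Late neutrophil genes had 2 of 12 lower and none higher.

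The RPKM values of different genes in these tables are not on one scale. For 9281 of 16039 genes compared the divisor was the summed length of every exon of every transcript, which is longer than any one transcript where a gene has several. For others, Ctsl among them, it was not. Ctsh has 11 transcripts in GENCODE M21 and a divisor of 10718 bases against 1617 bases for its principal transcript. On the deposited scale it ranks below Ctsl in WT HSPC (2.24 against 10.6 RPKM), and per kilobase of the principal transcript it ranks above it (14.9 against 10.6).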
